A study of Mus musculus with 24 samples.

Results

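The complement components and receptors described here were 9 genes, chosen by name among the 45706 genes of the count table: the C1q subunit genes C1qa, C1qb and C1qc, the components C3, C4b, C6 and Cfp, and the receptors C3ar1 and C5ar1. They were chosen with earlier results of these data known. All 9 were found in the table by their Ensembl identifier. RNA was sequenced from FACS-sorted (ex vivo) microglia (MG), Kupffer cells (KCs), peritoneal macrophages (PMs) and alveolar macrophages (AMs), and from the matching tissue-resident macrophage-like cells (MG-, KC-, PM- and AM-LCs) kept in vitro for 14 days, with 3 libraries in each of the 8 groups. All cells came from female C57BL/6J mice, 8 to 12 weeks old per the labels, and the labels give no genetic change or drug treatment for any group. MG came from brain, KCs from liver, PMs from the peritoneal cavity and AMs from lung. The LCs grew on polyethylenimine-coated plastic with M-CSF (KC- and PM-LCs), M-CSF and IL-34 (MG-LCs) or GM-CSF (AM-LCs), and oxygen was held at 3% for MG-, KC- and PM-LCs but was atmospheric for AM-LCs. The medium was high in glucose for MG-, KC- and PM-LCs, whereas AM-LCs were deprived of glucose. Each flask pooled cells of 3 mice for MG-, PM- and AM-LCs and held the cells of 1 liver for KC-LCs. The TRMs passed a cell sorter and the LCs did not, so isolation, pooling and culture cannot be told apart in any comparison of the 2 states. Among the LCs, the growth factors cannot be told apart from population where MG- or AM-LCs are compared with others, nor the oxygen and glucose for AM-LCs. KC- and PM-LCs shared all of these.

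The complement system is a cascade of proteins that tags particles and cells for removal. C1q, built from the A, B and C chains that C1qa, C1qb and C1qc encode, binds to a target and starts the classical pathway. C4b is the mouse gene for complement C4, which is cleaved next, and C3 is the protein on which all routes meet. Properdin (Cfp) stabilizes the C3 convertase of the alternative pathway, and C6 is part of the membrane attack complex. C3ar1 and C5ar1 encode the G protein-coupled receptors for the fragments C3a and C5a. Macrophages are a main source of C1q, the liver makes most circulating complement proteins, and microglial C1q and C3 receptors are known for their part in the removal of synapses.

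Each library had from 29569486 to 47105111 reads on genes. Levels are given as CPM (reads scaled to a common library size, normalized by TMM over the 24 libraries), and errors after ± are SDs over 3 libraries. At this depth, 0 reads in a group allowed at most 0.0354 CPM (3 reads over the 3 libraries), a limit that covers counting error only. Each sorted group had the highest summed level of its own 4 identity markers, and the matching LCs had less: the microglia markers reached 18685 to 19612 CPM in MG and 295 to 2398 CPM in MG-LCs, the Kupffer cell markers 13890 to 24797 CPM in KCs and 16.9 to 94.0 CPM in KC-LCs, the peritoneal markers 24768 to 27586 CPM in PMs and 33.1 to 107 CPM in PM-LCs, and the alveolar markers 2050 to 2139 CPM in AMs and 508 to 1500 CPM in AM-LCs. Among the LCs, these sums did not all follow the names. The Kupffer cell markers reached 215 to 2233 CPM in MG-LCs and 142 to 825 CPM in PM-LCs, above KC-LCs. The alveolar markers reached 774 to 1537 CPM in PM-LCs, and the microglia markers 311 to 435 CPM in KC-LCs. The peritoneal markers were highest in PM-LCs, with at most 24.1 CPM in other LCs. All 6 general macrophage markers had reads in every group, with a sum between 12719 and 120159 CPM. Some libraries carried RNA of other cell types. The 8 fibroblast and mesothelium markers summed to 30968 CPM in MG-LC replicate 1, 2208 CPM in PM-LC replicate 2 and 1667 CPM in AM-LC replicate 3, against 0.0240 to 1012 CPM in the other cultured libraries. The 8 hepatocyte markers summed to 124 to 264 CPM in KCs, highest in replicate 1, and to 0.192 to 0.324 CPM in KC-LCs. These are bulk samples, so fewer cells of a type and less RNA per cell cannot be told apart.

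C1qa, C1qb and C1qc lie side by side on the minus strand of chromosome 4 (GRCm38: C1qb chr4:136880129-136886187, C1qc chr4:136889804-136893065, C1qa chr4:136895917-136898803), each with 3 exons in the annotation. Their levels followed each other closely over the 24 libraries, so the promoter windows of this cluster are shown. RefSeq windows (GRCm38.p6, 250 bases before to 50 after the start) were at hand for 7 of the 9 genes, among them C1qb (chr4:136886151-136886450, minus strand) and C1qc (chr4:136892865-136893164, minus strand), with C1qa and C4b missing. Capitals mark TGCTGA, a core of the Maf recognition element, and GAGGAA, a PU.1 core, each searched on both strands, so that the opposite strand reads TCAGCA and TTCCTC.
C1qb: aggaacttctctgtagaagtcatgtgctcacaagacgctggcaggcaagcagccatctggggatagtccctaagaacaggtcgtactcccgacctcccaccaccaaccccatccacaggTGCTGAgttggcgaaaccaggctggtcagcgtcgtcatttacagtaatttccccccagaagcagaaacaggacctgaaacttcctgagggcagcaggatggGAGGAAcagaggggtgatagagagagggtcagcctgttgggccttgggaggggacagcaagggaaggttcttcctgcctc
C1qc: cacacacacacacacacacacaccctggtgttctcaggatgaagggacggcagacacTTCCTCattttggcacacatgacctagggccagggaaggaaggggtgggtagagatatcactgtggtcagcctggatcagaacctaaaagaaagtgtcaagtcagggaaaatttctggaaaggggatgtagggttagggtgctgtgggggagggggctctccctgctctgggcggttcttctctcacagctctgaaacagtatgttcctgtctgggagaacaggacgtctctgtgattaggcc
The C1qb window held TGCTGA 131 bases and GAGGAA 30 bases before the start, both on the strand of the gene and without overlap. The C1qc window held GAGGAA alone, on the opposite strand, 193 bases before the start. Of the 32851 promoter windows of the same length, 19.5% held TGCTGA and 28.3% held GAGGAA on either strand, so these letters are common. TGCTGA was also found once in the windows of C3, C3ar1 and C5ar1, GAGGAA was found in that of Cfp, and neither was found in that of C6.

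The C1q genes were abundant in sorted MG, KCs and PMs and nearly missing from sorted AMs. Together they took 1.66% ± 0.0993 of all counted reads in MG, 1.71% ± 0.0739 in KCs and 1.56% ± 0.0502 in PMs, but 0.000172% ± 8.73e-05 in AMs. C1qa was at 3244, 3667 and 3274 CPM in the MG libraries, 2620, 2559 and 3400 CPM in KCs and 3856, 3750 and 3520 CPM in PMs. In AMs it was at 0.359, 0 and 0.273 CPM, from 23 reads in all. These groups did not overlap with AMs for any C1q gene, whereas the levels in MG, KCs and PMs lay within a narrow band. C1qb averaged 5530 CPM ± 368 in MG, 6511 CPM ± 614 in KCs, 6988 CPM ± 397 in PMs and 0.889 CPM ± 0.490 in AMs. C1qc averaged 4828 CPM ± 248, 5461 CPM ± 698, 5888 CPM ± 358 and 0.543 CPM ± 0.256 in the same order. Per kilobase of exon, C1qb stood above the other chains in all 3 C1q-rich populations, for example at 5082 CPM per kb ± 338 in MG beside 3264 ± 227 for C1qa and 2500 ± 128 for C1qc. The order of C1qa and C1qc depends on the length used. With the longest transcript as length, C1qb made up 41.1%, C1qc 32.5% and C1qa 26.4% of the C1q reads per length in MG.

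Among the sorted groups, each C1q gene was called against AMs in all 3 populations (9 of 9 comparisons), with log2 differences between 12.6 and 14.1 and adjusted p between 1.85e-09 and 3.82e-08. A gene was called at an adjusted p under 0.05 with an absolute log2 fold change over 1.5 in edgeR's quasi-likelihood test. The size of these differences rests on few AM reads: without AM replicate 1, the log2 difference between MG and AMs was 14.59 in place of 13.95 for C1qa. No C1q gene was called among MG, KCs and PMs (9 comparisons). For C1qa, the log2 difference was 0.19 between MG and KCs, with an interval of 2 standard errors from -0.53 to 0.92, and -0.38 between KCs and PMs, with an interval from -1.10 to 0.35. The C1qb levels of MG and PMs did not overlap, but their log2 difference of -0.39 had an interval from -0.91 to 0.13. Over the 9 comparisons the adjusted p lay between 0.248 and 0.793, which does not show equal levels. The intervals bound the differences for which they are given. With limma-voom, C1qb had an adjusted p of 0.0432 between MG and KCs and 0.00889 between MG and PMs. C1qc had 0.0247 between MG and PMs with that tool. None of the 9 passed both thresholds under any alternative.

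**Figure D1:**
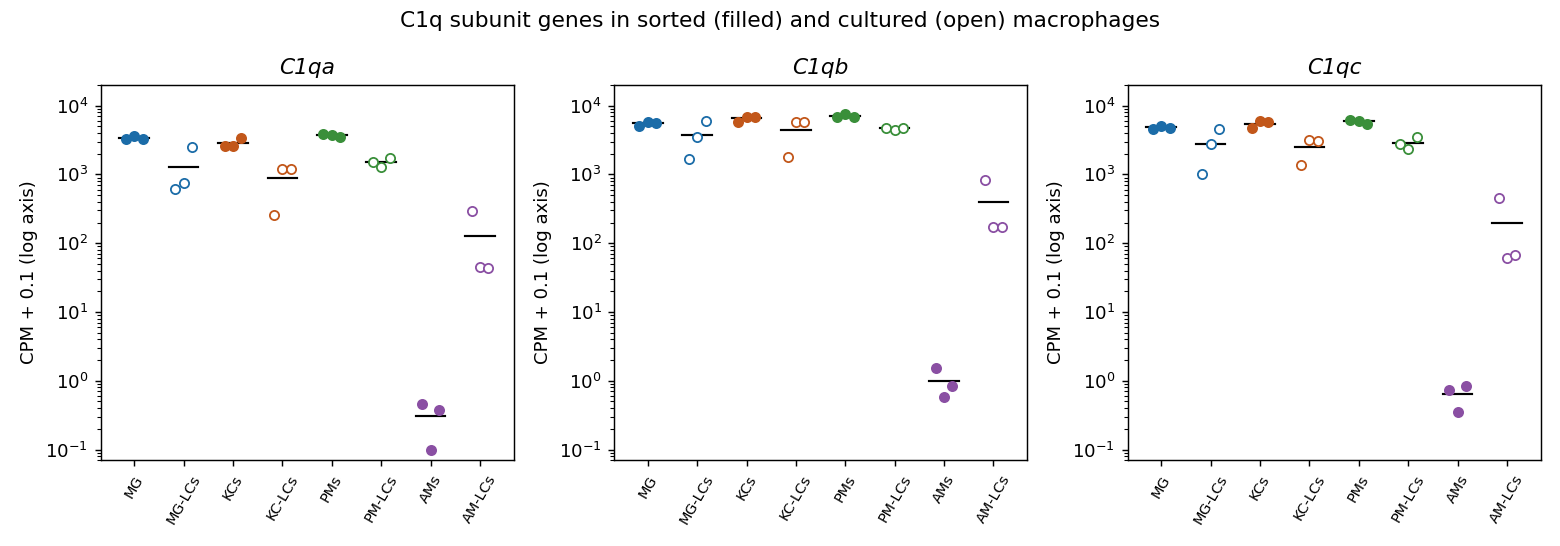
Level of C1qa, C1qb and C1qc in each library (points, CPM + 0.1 on a log axis) with the mean of each group (lines), sorted groups filled and cultured groups open. MG, KCs and PMs sat in 1 band between 2559 and 7445 CPM, AMs were near the bottom of the axis, and AM-LCs lay between 42.9 and 831 CPM.

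In culture, the C1q genes stayed abundant in MG-, KC- and PM-LCs, at a lower mean than ex vivo, while AM-LCs held more C1q RNA than AMs. The share of reads taken by C1q was 0.797% ± 0.470 for MG-LCs, 0.755% ± 0.334 for KC-LCs, 0.781% ± 0.0526 for PM-LCs and 0.0588% ± 0.0629 for AM-LCs. C1qa was at 605, 762 and 2525 CPM in MG-LCs, 259, 1187 and 1204 CPM in KC-LCs and 1498, 1271 and 1757 CPM in PM-LCs. The C1qa levels of sorted and cultured cells did not overlap in any of these populations, and the spread within MG-LCs and KC-LCs was wide. The log2 fold change of C1qa (ex vivo minus in vitro) was 1.35 ± 0.62 (SE) in MG (adjusted p = 0.118), 1.73 ± 0.56 in KCs (adjusted p = 0.0474) and 1.30 ± 0.18 in PMs (adjusted p = 0.00221), so only that in KCs passed both thresholds. The call in KCs was lost in 7 of 14 alternatives, among them the omission of each of the 6 KC and KC-LC libraries in turn (without KC-LC replicate 1, the log2 fold change of C1qa was 1.26). In MG, C1qa was called without MG-LC replicate 3, at a log2 fold change of 2.26 and an adjusted p of 0.00844.

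C1qb differed less between the states than C1qa. It was at 1649, 3456 and 5968 CPM in MG-LCs, 1817, 5769 and 5786 CPM in KC-LCs and 4729, 4429 and 4801 CPM in PM-LCs. Its levels overlapped with those of the sorted cells in MG and did not in KCs and PMs. The log2 fold change of C1qb was 0.54 ± 0.57 in MG (adjusted p = 0.459), 0.58 ± 0.48 in KCs (adjusted p = 0.38) and 0.59 ± 0.15 in PMs (adjusted p = 0.0240). C1qc lay between, with averages of 2779 CPM ± 1772 in MG-LCs, 2543 CPM ± 1012 in KC-LCs and 2859 CPM ± 549 in PM-LCs. Its log2 fold changes were 0.76 ± 0.61 in MG (adjusted p = 0.332), 1.13 ± 0.40 in KCs (adjusted p = 0.0630) and 1.04 ± 0.19 in PMs (adjusted p = 0.00728). In PMs, then, all 3 C1q genes passed the adjusted p and none passed the threshold on size. These PM results were not past the adjusted p when all 24 libraries shared 1 model (adjusted p of 0.195, 0.461 and 0.217 for C1qa, C1qb and C1qc).

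The composition of the C1q reads differed between the states. Per exon length, C1qa made up 30.1% ± 0.914 of the C1q of MG, against 19.8% ± 5.35 for MG-LCs. The same share was 23.8% ± 2.63 for KCs against 12.6% ± 2.75 for KC-LCs, and 27.4% ± 0.796 for PMs against 20.04% ± 1.34 for PM-LCs. C1qb made up 46.8% ± 1.00 for MG against 56.9% ± 3.16 for MG-LCs, 51.8% ± 1.60 for KCs against 65.0% ± 1.32 for KC-LCs, and 49.3% ± 1.59 for PMs against 59.5% ± 3.31 for PM-LCs. The C1qa share was lower, and the C1qb share higher, in every cultured library than in every sorted library of its population. With 3 libraries against 3, the exact two-sided permutation test gave p = 0.1 for each of these 6 comparisons, the smallest p it allows, and so none could pass 0.05. The shares of a library add up to the whole, so the C1qa and C1qb comparisons are not independent. The mean C1qb level itself was lower in vitro in all 3 populations. The C1qc share overlapped between the states in MG and KCs (exact permutation p of 0.8 and 0.4). In PMs it was 23.4% ex vivo and 20.4% in vitro, without overlap (exact permutation p = 0.1, again the smallest possible). With the longest transcript as length, which is shorter for C1qc, the C1qa share was 26.4% in MG and 17.4% in MG-LCs.

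**Figure D2:**
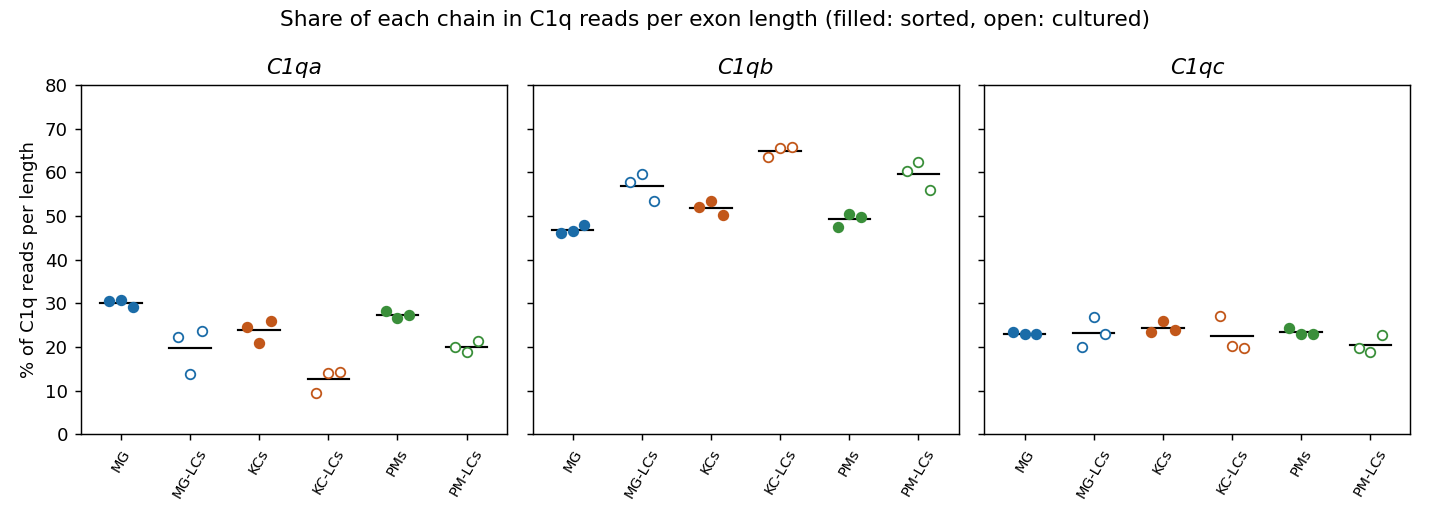
Share of each chain in the C1q reads per exon length (%), by library (points) with the group mean (lines), for the 3 C1q-rich populations, sorted groups filled and cultured groups open. The C1qa points of each cultured group lie below those of its sorted group, and the C1qb points lie above.

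AMs were the only population in which the C1q means were higher in vitro than ex vivo. C1qa was at 290, 45.2 and 42.9 CPM in AM-LCs, C1qb at 831, 172 and 172 CPM and C1qc at 459, 61.2 and 66.4 CPM. Every AM-LC library was above every AM library, and replicate 1 was the highest for each chain. The log2 fold changes (ex vivo minus in vitro) were -9.22 ± 1.23 for C1qa (adjusted p = 0.00105), -8.78 ± 0.92 for C1qb (adjusted p = 0.000410) and -8.47 ± 1.10 for C1qc (adjusted p = 0.000953). Without AM-LC replicate 1 they were -7.75, -7.65 and -6.91 for C1qa, C1qb and C1qc and passed both thresholds. C1qa missed the adjusted p with limma-voom (0.0532). In AMs, C1qa had 12, 0 and 11 reads and C1qc had 21, 10 and 30 reads. Both passed the filter in this comparison through AM-LCs alone, so nothing is read from their calls. AM-LCs still held less C1q than the other LCs. In the comparisons among LCs, C1qb and C1qc were called against AM-LCs in all 3 populations and C1qa in MG-LCs and PM-LCs, with log2 differences from 3.24 to 3.85, which became 4.41 to 5.45 without AM-LC replicate 1. All 8 of these calls were lost without AM-LC replicate 2 (adjusted p from 0.0957 to 0.169), and likewise without AM-LC replicate 3. The order of group means was PMs, MG, KCs, PM-LCs, MG-LCs, KC-LCs, AM-LCs and AMs for C1qa. Neighbours in this order overlapped, apart from KCs and PM-LCs and from AM-LCs and AMs. For C1qb and C1qc the PMs, KCs and MG came first, with overlapping levels, and AM-LCs and AMs came last, each apart from its neighbour.

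C4b (chr17:34728380-34743882, minus strand) had its highest level in PMs, followed by KCs, and was nearly gone from their LCs. It was at 5457, 8335 and 5597 CPM in PMs and 394, 722 and 847 CPM in KCs, and at 2.16 to 4.87 CPM in MG and 1.34 to 6.86 CPM in AMs. In PM-LCs it was at 65.5, 38.3 and 53.4 CPM. No PM-LC library came near a PM library. The log2 fold change was 6.95 ± 0.34 in PMs (adjusted p = 3.49e-05), a 123-fold higher mean ex vivo. In KC-LCs C4b had 0 reads in all 3 libraries, which set against 3 reads over the group gives an at least 26400-fold higher level in KCs. Its call there (adjusted p = 0.000207) was fixed by the filter, which C4b passed in that comparison through KCs alone. In MG and AMs, C4b was not called: its mean was 10.8 CPM ± 14.4 in MG-LCs and 18.7 CPM ± 30.3 in AM-LCs (adjusted p of 0.283 and 0.276). In both, 1 library stood out, MG-LC replicate 1 at 27.3 CPM and AM-LC replicate 3 at 53.6 CPM, which also had the highest sums of fibroblast and mesothelium markers. Without each of them, the log2 fold change of C4b turned from -1.77 to 0.31 in MG and from -2.29 to 1.76 in AMs. The part of other cells in this was not tested. C4b shares 34.6% of its 50-base stretches with its close paralog C4a, so reads may be split between them or lost, and no other member shared any such stretch with another gene of the annotation.

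C6 (chr15:4727175-4814967, plus strand) was read in KCs and hardly anywhere else. Its levels were 555, 1305 and 1705 CPM in KCs, from 130515 reads, and a single read was found in the 3 KC-LC libraries. The ratio of KCs to KC-LCs was 144000, with a 95% counting interval from 25800 to 5670000, and the difference was called (adjusted p = 0.000114). The other groups had between 0 reads (AMs) and 24 reads (PMs, all in replicate 2), and C6 passed the filter on low counts in KCs alone. The 6 markers of liver sinusoidal endothelium summed to 456, 727 and 838 CPM in KC replicates 1 to 3, the same order as C6, and to 15.2 to 40.3 CPM in KC-LCs. The 6 general macrophage markers had this order too (12719, 20404 and 21070 CPM). The Kupffer cell markers summed to 13890, 24797 and 24680 CPM, also lowest in replicate 1. The hepatocyte markers summed to 264, 124 and 141 CPM in the same KC libraries, highest where C6 was lowest. The part of each of these cell types in the C6 levels was not tested. Among sorted cells, C6 was called in KCs against MG (adjusted p = 1.30e-05), PMs (adjusted p = 3.25e-05) and AMs (adjusted p = 1.28e-05). C6 entered these fits through KCs alone, so its calls, that against KC-LCs included, were fixed by the filter and nothing is read from them.

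Cfp (chrX:20925454-20931555, minus strand) had its highest levels in PMs and KCs and the opposite direction in MG. It was at 5496, 5125 and 5097 CPM in PMs and 166, 226 and 300 CPM in PM-LCs. KCs had 2429, 3609 and 3503 CPM and KC-LCs 555, 543 and 478 CPM. In both, all sorted libraries were far above all cultured ones, with a log2 fold change of 4.50 ± 0.28 in PMs (adjusted p = 7.76e-05) and 2.63 ± 0.30 in KCs (adjusted p = 0.00122). MG had 0.793, 1.08 and 0.931 CPM and MG-LCs 632, 543 and 132 CPM. Here the cultured libraries were all higher, at a log2 fold change of -8.91 ± 0.79 (adjusted p = 0.00106). AMs held 246 CPM ± 10.5 and AM-LCs 265 CPM ± 181, whose levels overlapped (log2 fold change -0.11 ± 0.42, adjusted p = 0.854). The ranges of the 4 cultured groups for Cfp fell between 132 and 632 CPM, whereas the sorted groups spanned 0.793 to 5496 CPM. PMs, KCs and MG, at both ends of the order of means, were each apart from all other groups, while the levels of neighbours from KC-LCs down to PM-LCs overlapped.

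C3 (chr17:57203970-57228136, minus strand) was highest in PMs and AMs and almost absent from MG. It was at 353, 510 and 372 CPM in PMs, 259, 278 and 294 CPM in AMs, 172, 87.6 and 93.8 CPM in KCs and 0.661, 1.14 and 1.15 CPM in MG. In culture it was at 17.1, 191 and 78.3 CPM in PM-LCs, 38.0, 92.5 and 405 CPM in AM-LCs, 11.2, 18.3 and 65.8 CPM in KC-LCs and 133, 15.1 and 19.1 CPM in MG-LCs. Each cultured group varied widely, and all MG-LC libraries were above all MG libraries. C3 was called in MG (log2 fold change -5.89 ± 1.07, adjusted p = 0.00746), and without MG-LC replicate 1 it was at -4.17 (adjusted p = 0.000541), while with limma-voom it missed the threshold (adjusted p = 0.0597). It was not called in KCs (1.93 ± 0.65, adjusted p = 0.0545), PMs (2.10 ± 0.74, adjusted p = 0.0718) or AMs (0.58 ± 0.77, adjusted p = 0.566). These results turned on the tool, the filter and single cultured libraries. In KCs, C3 was called higher ex vivo with limma-voom (log2 fold change 2.28, adjusted p = 0.0178), with DESeq2 (1.98, adjusted p = 0.00643), without a filter on low counts (adjusted p = 0.0419) and with a filter of 1 CPM in 3 libraries (adjusted p = 0.0498). In PMs, C3 was called higher ex vivo with limma-voom (2.67, adjusted p = 0.0248), with DESeq2 (2.11, adjusted p = 0.00525), without a filter (adjusted p = 0.0479) and with a replicate block (2.64, adjusted p = 0.0360). By library, C3 was called higher ex vivo in KCs without KC-LC replicate 3 (adjusted p = 0.00961), in PMs without PM-LC replicate 1 (adjusted p = 0.0361) or 2 (adjusted p = 0.00798), and in AMs without AM-LC replicate 3 (log2 fold change of C3 2.10, adjusted p = 0.00459). In all 4 cultured groups, the library with the most C3 also had the highest sum of fibroblast and mesothelium markers, which was 30968 CPM in MG-LC replicate 1, 29.8 CPM in KC-LC replicate 3, 2208 CPM in PM-LC replicate 2 and 1667 CPM in AM-LC replicate 3. KC replicate 1, with the most hepatocyte RNA, had the most C3 of the sorted KCs. The part of these cells in the C3 levels was not tested. In the order of means, PMs came first and did not overlap with AMs, the next, and MG came last and apart from KC-LCs, while all neighbours between them (AMs, AM-LCs, KCs, PM-LCs, MG-LCs, KC-LCs) overlapped.

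**Figure D3:**
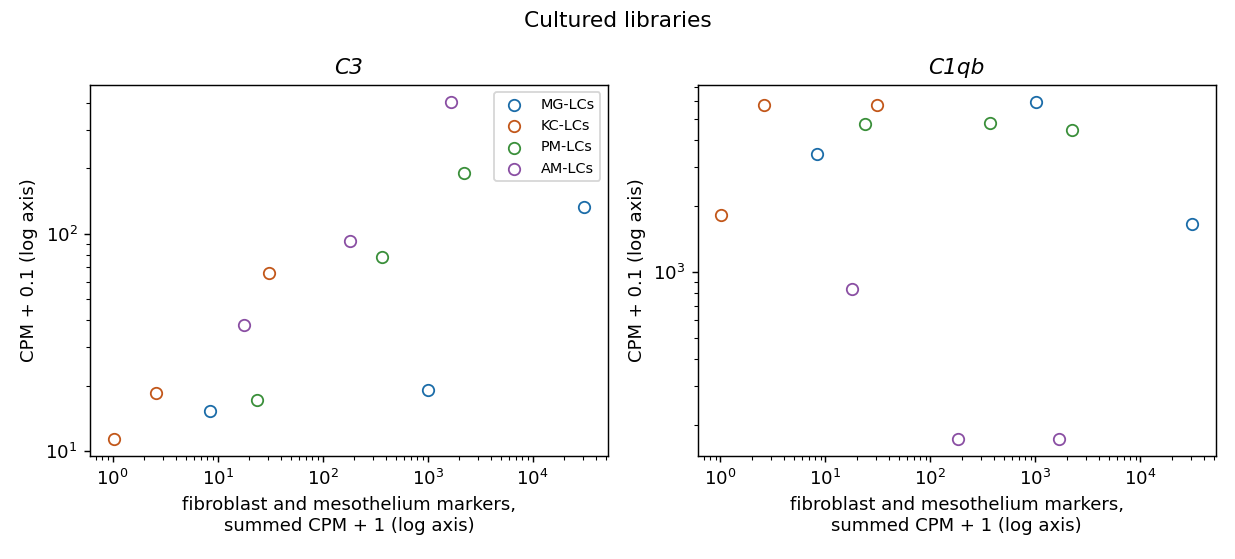
C3 (left) and C1qb (right) in the 12 cultured libraries (CPM + 0.1, log axis) against the summed level of 8 fibroblast and mesothelium markers (CPM + 1, log axis), 1 point per library. Within every cultured group the library with the most marker RNA had the most C3. That same library had the least C1qb in MG- and PM-LCs, and in AM-LCs by a small margin (171.7 against 171.8 CPM). In KC-LCs it had the most C1qb (5786 against 5769 CPM for the next).

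The receptor C3ar1 (chr6:122847138-122856161, minus strand) was the only member called higher in vitro in all 4 populations. It was at 384, 377 and 375 CPM in MG and 460, 1654 and 2551 CPM in MG-LCs. KCs had 89.0, 306 and 358 CPM and KC-LCs 1053, 1231 and 1587 CPM. PMs had 494, 571 and 521 CPM and PM-LCs 2031, 1113 and 2674 CPM. In each of these populations all cultured libraries were above all sorted ones, although MG-LC replicate 1, with the most fibroblast RNA, was just above MG. The log2 fold changes of C3ar1 were -2.08 ± 0.61 in MG (adjusted p = 0.0334), -2.33 ± 0.51 in KCs (adjusted p = 0.0115) and -1.88 ± 0.32 in PMs (adjusted p = 0.00502). The call in MG was lost in 6 of 14 alternatives, namely with a replicate block (adjusted p = 0.0886) and without MG replicate 1, 2 or 3 or MG-LC replicate 2 or 3 (adjusted p from 0.0687 to 0.120). AMs had 0.478, 0.946 and 0.597 CPM and AM-LCs 387, 198 and 325 CPM. This was the widest separation, at a log2 fold change of -8.81 ± 0.41 (adjusted p = 3.69e-05). C3ar1 was still called lower in AM-LCs than in MG-LCs, KC-LCs and PM-LCs, with log2 differences of 2.34, 2.07 and 2.64. PM-, MG- and KC-LCs led the order of means, with overlapping levels, followed by PMs and then by MG, AM-LCs and KCs, each overlapping the next, with AMs apart at the end.

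C5ar1 (chr7:16246743-16259540, minus strand) went in opposite directions in KCs and AMs. It was at 120, 172 and 208 CPM in KCs and 879, 1188 and 930 CPM in KC-LCs, without overlap (log2 fold change -2.55 ± 0.31, adjusted p = 0.00146). AMs had 823, 862 and 952 CPM, the highest of the sorted groups, and AM-LCs had 39.6, 0.534 and 10.5 CPM. The sorted AMs were here above all AM-LCs, with a log2 fold change of 5.70 ± 1.21 (adjusted p = 0.00731) that was 7.24 without AM-LC replicate 1. MG had 193, 238 and 212 CPM and MG-LCs 171, 1132 and 915 CPM, which overlapped, and C5ar1 was not called (log2 fold change -1.82 ± 0.65, adjusted p = 0.0603). C5ar1 was called higher in MG-LCs with DESeq2 (log2 fold change -1.79, adjusted p = 0.00944) and without MG-LC replicate 1 (-2.30, adjusted p = 0.000332). PMs had 561 CPM ± 85.4 and PM-LCs 902 CPM ± 301 (log2 fold change -0.69 ± 0.27, adjusted p = 0.0992). Among LCs, C5ar1 was called lower in AM-LCs than in MG-, KC- and PM-LCs, with log2 differences of 5.43, 5.88 and 5.71. By their means, KC-LCs, PM-LCs, AMs, MG-LCs and PMs followed each other with overlapping neighbours, then MG and KCs, which also overlapped, and AM-LCs were last and apart.

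**Figure D4:**
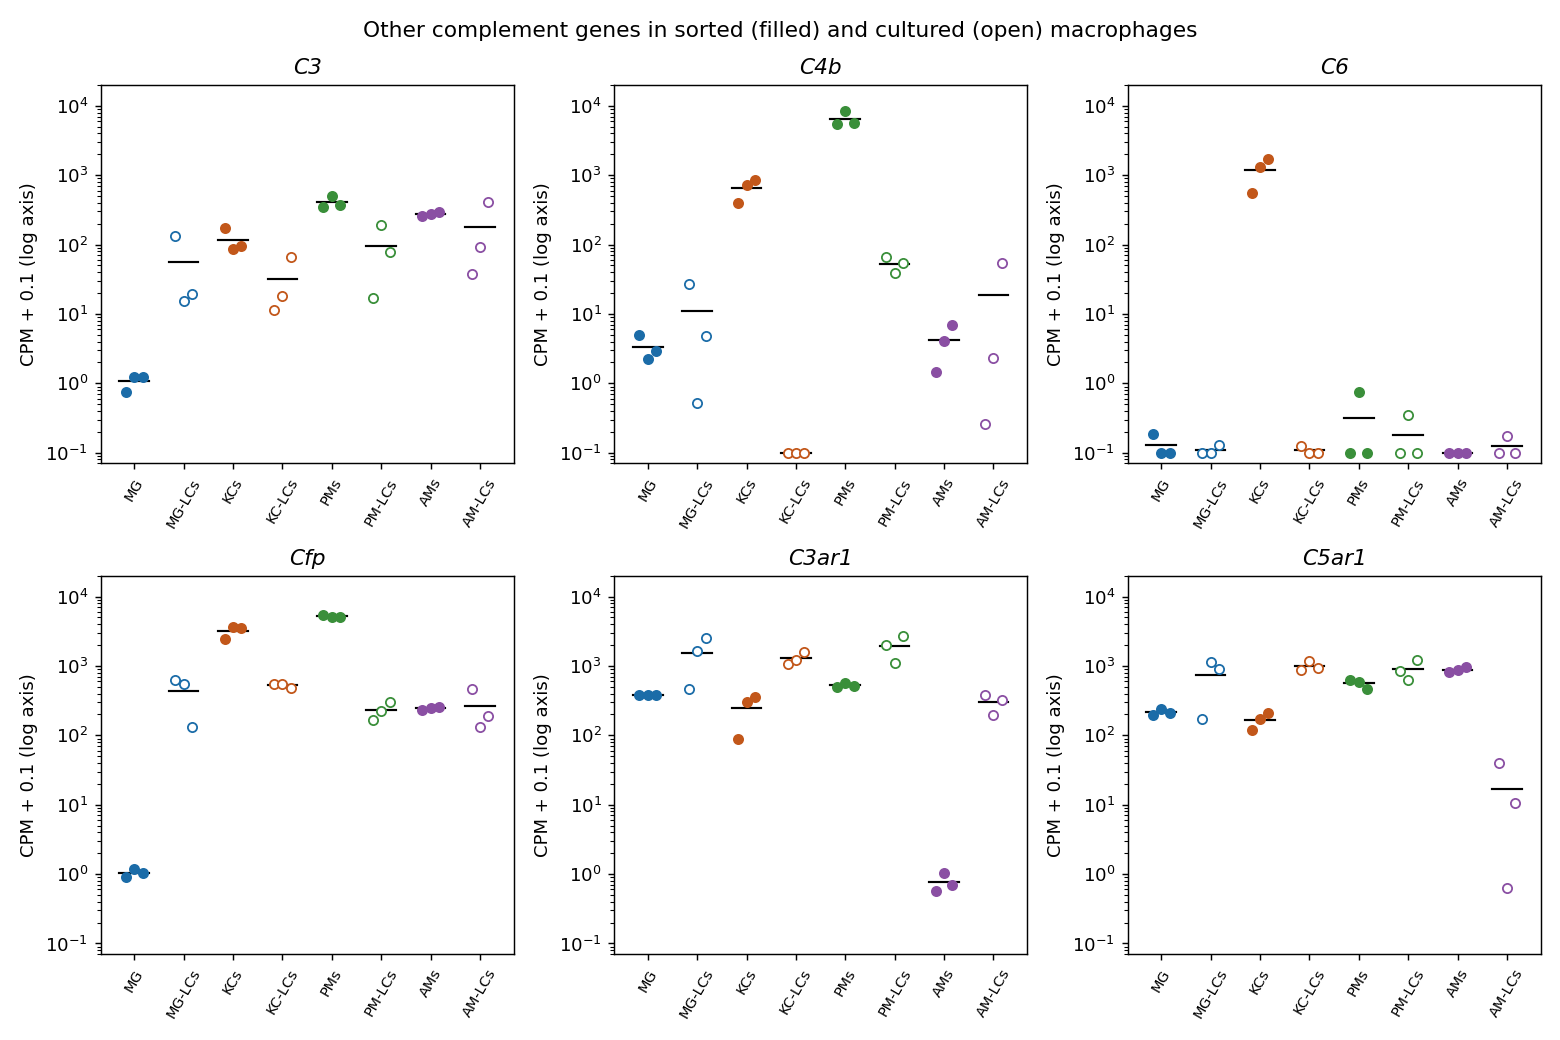
Level of C3, C4b, C6, Cfp, C3ar1 and C5ar1 in each library (points, CPM + 0.1 on a log axis) with the group mean (lines), sorted groups filled and cultured groups open. C4b and C6 had few or no reads in KC-LCs, Cfp in the 4 cultured groups lay between 132 and 632 CPM, and C3ar1 was higher in every cultured group than in its sorted group.

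Read against all genes tested, the members divided by population. They were chosen with earlier results of these data known, so these shares and medians, and the later shares by pair, describe them and test nothing. In MG, 0 of 8 tested members were higher ex vivo (13.5% of all genes were) and 3 were higher in vitro, C3, Cfp and C3ar1 (16.4% of all genes). Of the 8, 4 had an unadjusted p under 0.05 with edgeR, and neither limma-voom nor DESeq2 called any of them higher ex vivo. Without MG-LC replicate 3, C1qa became the 1 member called higher ex vivo. In KCs, 4 of 9 were higher ex vivo, C1qa, C4b, C6 and Cfp (14.7% of all genes), and 2 were higher in vitro, C3ar1 and C5ar1 (7.62% of all genes). C4b and C6 entered this comparison through sorted KCs alone, so their calls were fixed by the filter. In PMs, 2 of 8 were higher ex vivo, C4b and Cfp (7.57% of all genes), and 1 higher in vitro, C3ar1 (10.2% of all genes). In AMs, 1 of 8 was higher ex vivo, C5ar1 (8.62% of all genes), and 4 were higher in vitro, the C1q genes and C3ar1 (12.9% of all genes). C1qa and C1qc entered this comparison through AM-LCs alone, so nothing is read from their calls. Without AM-LC replicate 3, C3 was called higher ex vivo in AMs as well, which made 2. The median log2 fold change was -1.80 over the members tested in MG and -0.03 over all genes tested there, 1.73 and 0.01 in KCs, 1.17 and -0.01 in PMs, and -5.38 and -0.04 in AMs. C4b in KCs, with no read in KC-LCs, was above this median at its lower bound too.

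**Figure D5:**
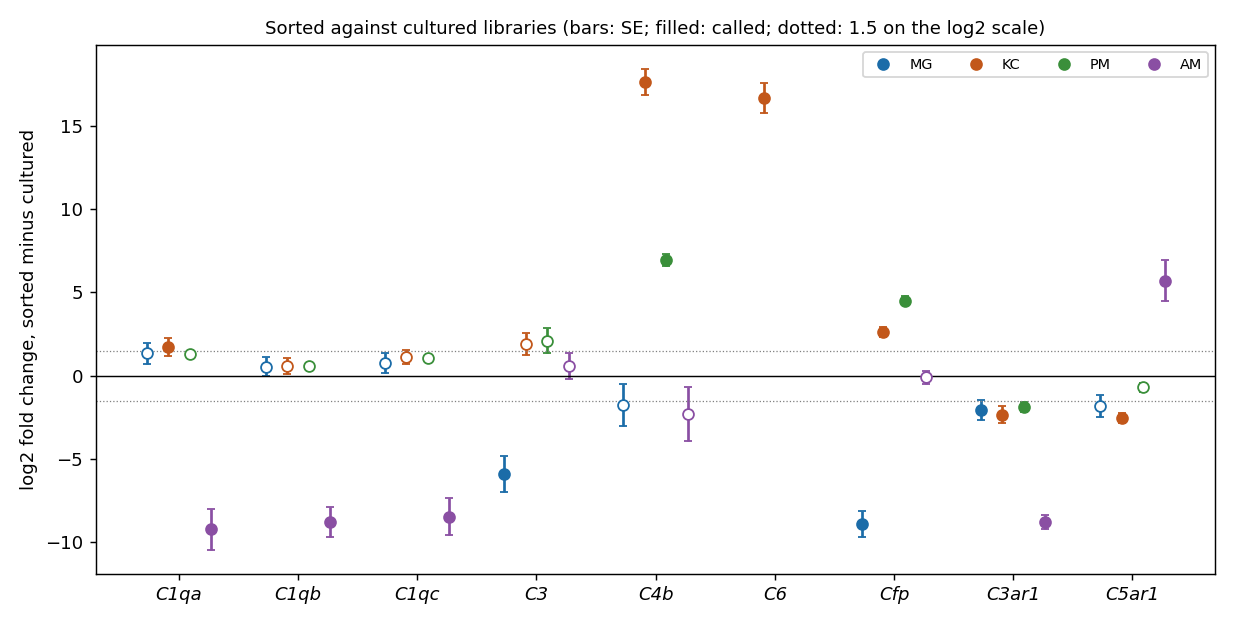
Log2 fold change (sorted minus cultured) of the 9 genes in MG, KCs, PMs and AMs, with bars for the SE, filled points for genes past both thresholds and dotted lines at 1.5 on the log2 scale. The points for C4b and C6 in KCs rest on 0 and 1 read in KC-LCs, so that their height depends on the prior count of the fit, and C6 was not tested elsewhere.

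The effect of state differed between the populations for the 8 members other than C6 in an interaction test over the 24 libraries (adjusted p from 5.42e-09 for Cfp to 0.000892 for C3), a call that 36.3% of all genes shared. C6 passed the test as well (adjusted p = 0.000716), but with 0 to 24 reads in each group apart from KCs it was measurable through that group alone, so that its call was fixed by the filter and nothing is read from it. With DESeq2 C6 missed the threshold (adjusted p = 0.0680), C4b was given no adjusted p, and the other 7 passed.

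Among sorted populations, 32 of 54 comparisons of a member between 2 populations were called, 9 of 18 for the C1q genes and 23 of 36 for the others. The 23 include the C6 calls of KCs against each other population, which were fixed by the filter. By pair, 4 of 9 members were called between MG and KCs (23.9% of all genes), 3 between MG and PMs (25.7%), 7 between MG and AMs (33.3%), 4 between KCs and PMs (18.6%), 8 between KCs and AMs (24.6%) and 6 between PMs and AMs (21.5%). MG differed from KCs and PMs by lower C3, C4b and Cfp, for instance by log2 differences of -6.97, -7.68 and -11.78 from KCs. AMs differed from MG by higher C3 and Cfp (log2 differences, MG minus AMs, of -8.18 and -8.08) and higher C5ar1 (-2.07), beside their low C1q and C3ar1 (9.08 for C3ar1). KCs differed from PMs by lower C3 (-1.80), C4b (-3.31) and C5ar1 (-1.75), which were not past the adjusted p with all 24 libraries in 1 model (adjusted p of 0.155, 0.0813 and 0.111 for C3, C4b and C5ar1).

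Among cultured populations, 14 of 48 comparisons were called, 8 of 18 for the C1q genes and 6 of 30 for the others, and all 14 were between AM-LCs and another population. By pair, 0 of 8 members were called between MG- and KC-LCs (0% of all genes), 0 between MG- and PM-LCs (0.0743%), 5 between MG- and AM-LCs (5.15%), 0 between KC- and PM-LCs (0.108%), 4 between KC- and AM-LCs (5.37%) and 5 between PM- and AM-LCs (3.75%). Among MG-, KC- and PM-LCs, 1 member of 8 (MG- against KC-LCs), 0 (MG- against PM-LCs) and 1 (KC- against PM-LCs) had an unadjusted p under 0.05 with edgeR. Limma-voom called 0 members in these 3 pairs, and DESeq2 called 1, 0 and 1. Over all genes, edgeR called 0 between MG- and KC-LCs, with 2288 genes at an unadjusted p under 0.05, limma-voom also called 0, and DESeq2 called 915. The 14 calls rested on single libraries: 0 were left without AM-LC replicate 3, 3 without AM-LC replicate 2, 6 without KC-LC replicate 2 or PM-LC replicate 1, 7 without KC-LC replicate 3 or PM-LC replicate 3 and 9 without MG-LC replicate 3. Their adjusted p lay between 0.0214 and 0.0494.

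The genes of most similar pattern were described by Pearson's r of log2 CPM over the 24 libraries, among 17331 genes. The libraries share 8 groups, so that these values describe group patterns. For the C1q genes the nearest were the other chains (r from 0.991 to 0.996). The next for C1qb was Kcnk13, which encodes a potassium channel (0.973). C6 was nearest to Clec4f (0.985), a Kupffer cell lectin, Serpina6 (0.978) and Proc (0.978). C4b was nearest to Lbp (0.915), the lipopolysaccharide binding protein, Cxcl13 (0.897), a B cell chemokine, and Zfp507 (0.884). C3ar1 was nearest to Pmp22 (0.981), B4galt6 (0.976) and Tubb2a (0.958), and Cfp to Ehd1 (0.944), Emilin2 (0.943) and Itga4 (0.940), an integrin chain. C3 (Fzd1, 0.920, Selenow, 0.910, and Gda, 0.908) and C5ar1 (among its nearest Rdm1, 0.811, and Rad21, 0.777) were also described in this way, and the values for C5ar1 were the lowest of the 9 members. Many of these neighbours changed with the measure. Kcnk13, Proc, B4galt6, Ehd1, Emilin2, Fzd1, Selenow and Rad21 were among the 3 nearest neither by Spearman's rho nor by the means of the 8 groups. Outside the C1q genes, Zfp507 alone of those named was among them by both.

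A list of 40 other complement genes was likewise chosen with earlier results of these data known, so its shares only describe it. Of the 40, 17 were tested for MG, where 2 were higher ex vivo (13.5% of all genes were) and 7 higher in vitro (16.4%). For KCs 23 were tested, with 10 higher ex vivo (14.7% of all genes) and 4 higher in vitro (7.62%). For PMs 22 were tested, of which 5 were higher in the sorted cells (7.57% of all genes) and 8 in the cultured ones (10.2%). For AMs 17 were tested, of which 1 was higher in the sorted cells (8.62% of all genes) and 9 in the cultured ones (12.9%). Called genes with at most 30 reads in the lower state passed the filter through the other state alone. Nothing is read from those calls, here or below, though the counts include them. They were C2, Fcna, Cd93 and Cd59b in MG, and C2, Cfb, Cr2, Vsig4, Cfi, Vtn and Cd59b in KCs. In PMs they were C1s1, C4a, Cfb, Itgax, Serping1 and Cd59b, and in AMs C1s1, Fcna, Serping1, Clu and Cd55. Of 13 initiators of the classical and lectin pathways, 3 of the 5 tested were higher ex vivo in KCs, 3 of the 4 tested were higher in vitro in MG and likewise 3 of 4 in AMs, and 2 of the 6 tested in PMs went in each direction. Of 12 regulators, 4 of the 9 tested were higher ex vivo in KCs and 2 higher in vitro, against 0 and 5 of 8 in PMs, 0 and 4 of 6 in AMs and 1 and 2 of 6 in MG. Of 6 terminal pathway genes, 1 was tested in each population and none was called. Fcna, which encodes ficolin A of the lectin pathway, was at 2930 CPM ± 442 in KCs and 18.4 CPM ± 9.80 in KC-LCs (adjusted p = 0.000269), and at 1423 CPM ± 278 in PMs and 37.6 CPM ± 4.84 in PM-LCs (adjusted p = 3.03e-05). It was called higher in vitro in MG (0.129 CPM ± 0.0502 against 21.3 CPM ± 19.5, adjusted p = 0.00438) and AMs (0.275 CPM ± 0.247 against 4.12 CPM ± 0.952, adjusted p = 0.0185). C2, the protease of the classical convertase, was called higher ex vivo in KCs (59.3 CPM ± 20.2 against 0.199 CPM ± 0.0923) and higher in vitro in MG, PMs and AMs, where no group mean was above 5.06 CPM. C1ra, a subunit protease of C1, was called higher ex vivo in KCs (35.3 against 5.21 CPM) and higher in vitro in MG (2.76 against 26.05 CPM), C1s1 higher in vitro in PMs (0.204 against 20.2 CPM) and AMs (0.0896 against 55.7 CPM), and C4a higher ex vivo in PMs (2.07 against 0.278 CPM). Cfb, factor B of the alternative pathway, was higher ex vivo in KCs (13.5 against 0.117 CPM, adjusted p = 0.00366) and PMs (29.7 against 0.310 CPM, adjusted p = 0.00127).

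The other receptors included genes with larger levels. Vsig4, the complement receptor of Kupffer cells for C3 fragments, was at 2648 CPM ± 881 in KCs and at 0.0563 CPM ± 0.0770 in KC-LCs (7 reads, adjusted p = 0.000169), and at 632 CPM ± 56.5 in PMs and 59.7 CPM ± 42.5 in PM-LCs (adjusted p = 0.00629). Itgam, the alpha chain of complement receptor 3, was higher ex vivo in PMs (3711 CPM ± 718 against 556 CPM ± 374) and higher in vitro in KCs (75.8 CPM ± 28.5 against 503 CPM ± 142) and AMs (3.48 CPM ± 1.03 against 534 CPM ± 115). Itgax, the alpha chain of complement receptor 4, was higher in vitro in PMs (0.175 against 382 CPM ± 122) and MG (7.22 against 67.1 CPM ± 54.7, with overlap). Cd93, once named as a C1q receptor, was higher in vitro in MG (0.00795 against 146 CPM ± 79.5), KCs (3.83 against 197 CPM ± 65.6) and AMs (19.6 against 141 CPM ± 23.2). C5ar2, the other C5a receptor, was higher ex vivo in MG (67.1 CPM ± 10.2 against 9.95 CPM ± 7.39, adjusted p = 0.0174) and AMs (25.4 CPM ± 5.68 against 1.88 CPM ± 0.991, adjusted p = 0.000775), the latter together with C5ar1. Cr2, a B cell receptor for C3 fragments, was higher ex vivo in KCs (2.09 CPM ± 2.46 against 0 reads). Cr2 was at 0.571, 4.93 and 0.770 CPM in KC replicates 1 to 3, where the 6 B cell markers summed to 340, 128 and 211 CPM, so that the library with the most Cr2 had the lowest B cell sum. KCs were sorted with antibodies to CD45, CD11b, F4/80 and TIM-4, and the part of B cells was not tested.

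Among the regulators, which protect cells from complement, Cd55 (56.3 against 0.474 CPM, adjusted p = 0.00267) was higher ex vivo in KCs, as were Vtn (7.15 CPM ± 1.71 against 0 reads) and Cfi (4.91 CPM ± 5.71 against 0 reads). Cfi was at 11.5, 1.92 and 1.31 CPM and Vtn at 9.08, 6.59 and 5.79 CPM in KC replicates 1 to 3. Both were highest in replicate 1, which had the most hepatocyte RNA of the KCs (264 CPM, against 124 and 141), and the part of those cells was not tested. Cd59a was higher in vitro in all 4 populations, with cultured means between 12.9 and 20.1 CPM, and Cd59b in MG, KCs and PMs, with cultured means under 1 CPM. Clu (clusterin) was higher in vitro in PMs (0.374 against 139 CPM ± 160) and AMs (0.0694 against 62.3 CPM ± 90.9), and so was Serping1, the C1 inhibitor (0.206 against 53.6 CPM ± 71.2 in PMs and 0.0829 against 37.0 CPM ± 59.2 in AMs). For both, the SD of the cultured group was larger than its mean. Clu, Serping1, C1s1 and Cd55 were highest in PM-LC replicate 2 and AM-LC replicate 3 within their groups, the libraries with the most fibroblast RNA, and the part of those cells was not tested. Cd55 was called higher in vitro in PMs (4.23 against 18.9 CPM, with 11.3, 35.7 and 9.92 CPM in the PM-LC libraries) and AMs (0.149 against 8.25 CPM, with 4.02, 1.30 and 19.4 CPM in the AM-LC libraries), opposite to KCs, and Cd46 was higher ex vivo in MG (2.77 against 0.362 CPM).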

How the data were processed

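RNA of 24 libraries in 8 groups was analysed. The authors used SMARTer and Nextera XT reagents (poly-A, not strand-marked), and mapped single reads to mm10 by STAR after trimming by Trimmomatic. The deposited values are raw read counts per gene, without normalization or a filter, and the strand setting of the counting was not given in the sources used here. The submitters' processing notes name STAR 2.5.2b and Trimmomatic 0.36 and list the build hg19, while the paper names mm10 and other versions of both tools, so the sources disagree. Symbols, lengths and coordinates came from GENCODE (GRCm38), and 563 of 45706 identifiers had no symbol. The members and lists were chosen with earlier results of these data known.

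Counts were tested with edgeR 4.0.16 (quasi-likelihood, two-sided, TMM, filterByExpr with a minimum count of 10, R 4.3.3), and p-values were adjusted over all genes tested by the Benjamini-Hochberg method. Each population's 6 libraries were fitted for the state, the 12 sorted and the 12 cultured libraries for pairs, and the 24 libraries for the interaction. Each SE is the log2 fold change divided by the square root of F. The 9 members and those other complement genes that were called at least once are named, with the 3 genes of most similar pattern to each member. A few genes these rules cover are not reported here. The alternatives were limma-voom (limma 3.58.1, the study's method), DESeq2 1.42.0, RLE size factors, other filters, a fold change of 1.5, 1 model of all libraries, a replicate block, other lengths, and leaving out each library. Leaving out the libraries richest in fibroblast or hepatocyte RNA was added after seeing the data. The scripts were tested on simulated data. The labels call the libraries biological replicates, and p-values measure the spread between them.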

Additional observations from a re-analysis of the deposited data

Results flagged for a closer look

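The effect of state (ex vivo minus in vitro) differed between the populations for the 9 members by an interaction test, and each was picked out for that. C6 had 0 to 24 reads in each group apart from KCs and passed the filter through KCs alone, so that its result was fixed by that group and nothing is read from it. The distance between the highest and the lowest of the 4 log2 fold changes, in the model of 24 libraries, was 10.92 for C1qa, 9.37 for C1qb and 9.59 for C1qc, where AMs stood opposite to MG, KCs and PMs. It was 13.37 for Cfp, from 4.51 in PMs to -8.86 in MG. For C3 it was 7.94, from 2.11 in PMs to -5.83 in MG. For C3ar1 it was 6.93, with all 4 values below 0, and for C5ar1 it was 8.28, from 5.70 in AMs to -2.58 in KCs. For C4b it was 19.74 and for C6 it was 19.62, with the high value in KCs in both, and these 2 distances depend on the prior count because KC-LCs had 0 and 1 read. Without the 3 cultured libraries with the most fibroblast RNA and the KC library with the most hepatocyte RNA, the interactions passed again for the 8 members other than C6 (and for C6, with an adjusted p of 0.0390).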

How the results depend on the processing

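The counts of members called in the 4 populations kept within 1.5 times under every alternative run, apart from those named here. Members called higher ex vivo were 5 in place of 2 in PMs with a fold change over 1.5, where the C1q genes were added. Omission of 1 library at a time gave 0 to 1 higher ex vivo and 2 to 4 higher in vitro in MG, 3 to 4 and 2 to 2 in KCs, 2 to 3 and 1 to 1 in PMs, 1 to 2 and 4 to 4 in AMs, 32 to 33 calls among sorted and 0 to 15 among cultured populations, and 9 to 9 interactions.

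The replicate numbers did not pair the sorted with the cultured libraries of a population. Same-numbered libraries of a population had correlated deviations of -0.104 to 0.0558, and 3 of 12 correlated best with their own number, while across populations the range was -0.385 to 0.288 (15 of 36). Each KC-LC library correlated best with the same-numbered library of PM-LCs (r from 0.0199 to 0.230) and of AM-LCs (0.0810 to 0.0924). Whether the numbers mark a pairing of the cultures was not tested. With the replicate block, the calls among cultured populations were 3 in place of 14. Over all genes, DESeq2 called 915 between MG- and KC-LCs, 600 between MG- and PM-LCs and 834 between KC- and PM-LCs, where edgeR called 0, 11 and 16 and limma-voom 0, 34 and 24, and 1395, 1702 and 1189 between AM-LCs and MG-, KC- and PM-LCs, where edgeR called 763, 796 and 556.

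The direction changed only for C4b and Cfp, which were called in neither setting. The log2 fold change of C4b in AMs was -2.29, and 0.48 with limma-voom, 0.031 with the replicate block and -2.87 to 1.76 over the omissions of 1 library. That of Cfp in AMs was -0.11, and 0.091, 0.10 and -0.43 to 0.56 in the same order. That of C4b in MG was -2.32 to 0.31 over the omissions. The cause was not tested. Without the 3 cultured libraries richest in fibroblast RNA, 10 calls were left among the LCs, and without the KC library richest in hepatocyte RNA 33 among the sorted cells. The lengths of the longest transcript moved 27 levels or shares by more than their SD. Depth was no limit for the C1q genes outside AMs, but the folds against AMs (C1q, C3ar1), MG (C3, Cfp) and KC-LCs (C4b, C6) rest on few reads.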
